A study of Mus musculus with 2 samples.

Results

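Of 9 genes chosen as invasion proteases and their inhibitors, 8 were listed in the table of 14197 genes measured in AS-treated and vehicle-treated 4T1 cells, and these 8 are described here. They are the matrix metalloproteinase (MMP) genes Mmp9, Mmp14 and Mmp15, the sheddase gene Adam17, the plasminogen activator gene Plau and its receptor gene Plaur, and the inhibitor genes Timp1 and Timp2. Timp3, the remaining gene, had no row and was dropped. The genes were taken by symbol and not by a rule on their values, but earlier results of these data were known when they were chosen. 4T1 is a murine breast cancer (BC) cell line, labelled WT for genotype, and AS (astragalin) is a plant flavonoid. One library, labelled 4T1_Ast, came from cells given 20 μM AS for 24 h, and the other, labelled 4T1_NC, came from cells given the vehicle, so there was 1 library per condition and no difference below has a replicate check. Per the study's methods, 4T1 cells were also made to carry a luciferase and EGFP construct under puromycin selection, and whether the sequenced cells carried it is not given in the sources used here.

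MMPs are zinc-dependent enzymes that cut collagen and other parts of the extracellular matrix. Mmp9 encodes a secreted gelatinase, whereas Mmp14 and Mmp15 encode MMPs anchored in the cell membrane by a transmembrane segment. Adam17 encodes a membrane protease that releases growth factors and TNF from the cell surface. Plau encodes urokinase, which turns plasminogen into plasmin, and Plaur encodes the receptor that holds urokinase on the cell. Timp1 and Timp2 encode secreted inhibitors that block the active site of MMPs, and TIMP-2 is also needed when the Mmp14 product activates pro-MMP-2. The paper used 4T1 cells to model bone metastasis of BC, and matrix breakdown by these cells was not measured in the libraries described here.

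The parts of the genes that encode the chemistry named above are shown first, because the common function of the metalloproteinases is visible there. Each stretch was read from the GENCODE M21 transcripts (GRCm38), 5′ to 3′ on the coding strand. For the 4 metalloproteinases it is the 33 bases that code for the zinc-binding site, with the codons of the 3 zinc-binding histidines in capitals.
Mmp9: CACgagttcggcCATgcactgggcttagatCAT
Mmp14: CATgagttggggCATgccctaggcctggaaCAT
Mmp15: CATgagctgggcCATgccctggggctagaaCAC
Adam17: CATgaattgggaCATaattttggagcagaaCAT
Mmp14 and Mmp15 had the same base at 27 of the 33 positions, and Mmp9 matched each of them at 25. Adam17, a more distant relative, matched the 3 MMPs at 20 to 22. These stretches lie at chr2:164951133-164951165 on the plus strand (Mmp9, exon 8 of 13), chr14:54437627-54437659 on the plus strand (Mmp14, exon 5 of 10), chr8:95368585-95368617 on the plus strand (Mmp15, exon 5 of 10) and chr12:21336732-21336764 on the minus strand (Adam17, exon 12 of 20).

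Plau uses a serine in place of zinc. Its stretch of 18 bases around the active serine, whose codon is in capitals, is at chr14:20842274-20842291 on the plus strand, in exon 11 of 11.
Plau: ggcgatTCTggaggaccg
For the inhibitors, the stretch codes for the part that enters the active site of an MMP, with the codons of 2 cysteines in capitals.
Timp1: TGTagcTGTgccccaccccacccacag
Timp2: TGCagcTGCtccccggtgcacccgcaa
The 2 inhibitor stretches had the same base at 18 of 27 positions. That of Timp1 is at chrX:20871111-20871137 on the plus strand, in exon 2 of 6, and that of Timp2 at chr11:118354986-118355012 on the minus strand, in exon 1 of 5.

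The values are RPKM, read numbers divided by exon length in kilobases and by library size, so that levels can be set side by side between genes. For most genes RPKM times exon length was a whole multiple of 1 constant per library, which gave library sizes of 44909683 reads with AS and 50820728 in the vehicle library. Of 13502 genes with a single GENCODE M21 entry of the same symbol, 94.2% gave whole reads in both libraries. Intervals are 95% intervals of these reads and cover counting error only, and reads without molecular identifiers are not independent molecules. Epithelial markers fixed for 4T1 (8 of 8 listed) summed to 1736 RPKM with AS and 2189 in the vehicle library, and went both ways, with log2 ratios from -0.73 for Krt19 and -0.54 for Krt8 to 0.17 for Cdh1 and 0.42 for Cldn4. Of the fibroblast markers, 4 of 8 were listed, at sums of 6.08 and 5.67, and of the macrophage markers 4 of 7, at 24.8 and 29.02, almost all of it Cd68 (24.0 and 28.1), while Ptprc was at 0.116 and 0.114. None of the 5 endothelial markers was listed. The part of these shifts in the values below was not tested.

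The members' levels spanned a wide range, as seen in the plot of RPKM by library. In the vehicle library Timp2 was the highest at 62.0 RPKM, followed by Timp1 (29.5), Plau (25.6), Mmp14 (16.8), Plaur (14.2), Adam17 (12.2), Mmp9 (11.1) and Mmp15 (0.419). Timp2 was thereby 148 times as high as Mmp15, the other end of the order. Among all genes of the vehicle library Timp2 ranked 858 and Mmp15 ranked 13464, so the inhibitor was within the top 6.04% and Mmp15 near the bottom of the table. With AS the order was Timp2, Plau, Timp1, Mmp14, Plaur, Adam17, Mmp9 and Mmp15, and the one change was that Plau passed Timp1. The counting intervals of neighbours did not overlap in the vehicle library. In the AS library those of Plau (22.5 to 24.4 RPKM) and Timp1 (20.4 to 23.4 RPKM) overlapped, so these neighbours are not ordered beyond counting error.

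**Figure D1:**
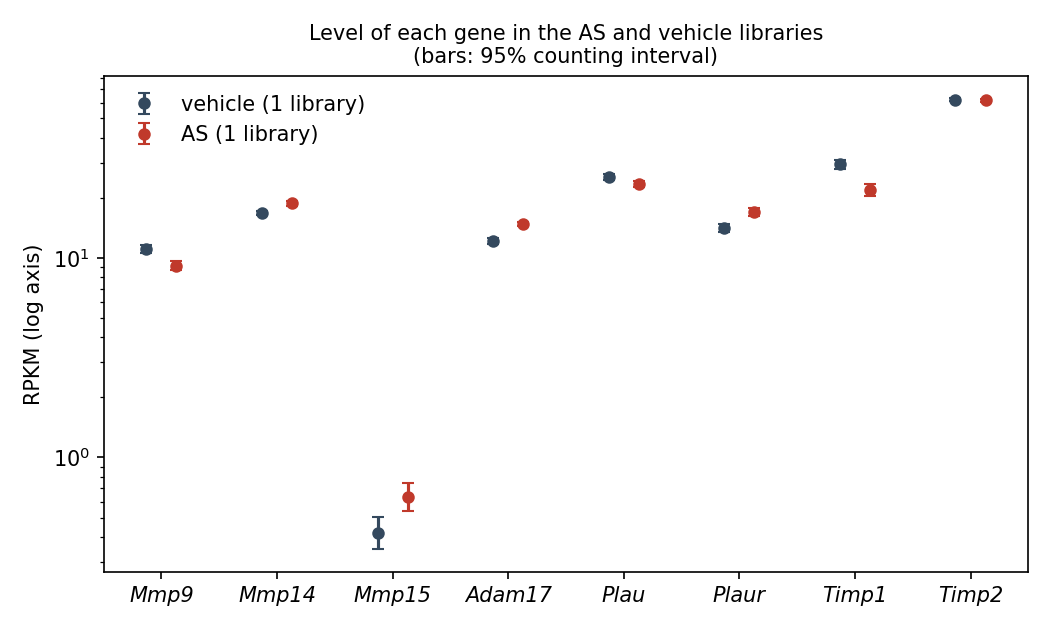
RPKM on a log axis for the 8 genes in the vehicle library (dark) and the AS library (red), 1 library each, with 95% counting intervals as bars. Timp2 is highest at about 62.0 RPKM in both libraries and Mmp15 lowest, and Timp1 shows the widest gap downward with AS, from 29.5 to 21.9.

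None of the 8 genes differed by more than the fold part of the study's threshold, a log2 ratio of 1 in either direction. The study paired its fold limits with limits on FDR or p-value, which were not applied here. The count was 0 of 8 at 1, where 0.972% of all genes lay beyond it, and 0 of 8 at a log2 ratio of log2(1.5), the second threshold in the methods, where 5.57% did. Here the log2 ratio is log2 of (AS + 0.1 RPKM) over (vehicle + 0.1 RPKM), a scale on which differences of low genes appear smaller than they are. Of the 8 genes, 4 were higher with AS and 4 lower, among the latter Timp2 at -0.01, which was above 0 when the values were expressed as TPM (0.05), whereas 60.9% of all genes were higher, and the median log2 ratio was 0.08 for the 8 genes and 0.07 for all genes. The middle 90% of all genes lay from -0.41 to 0.51, and Timp1 alone of the 8 was outside it. Mmp15, at 0.50, was just inside its upper end.

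**Figure D2:**
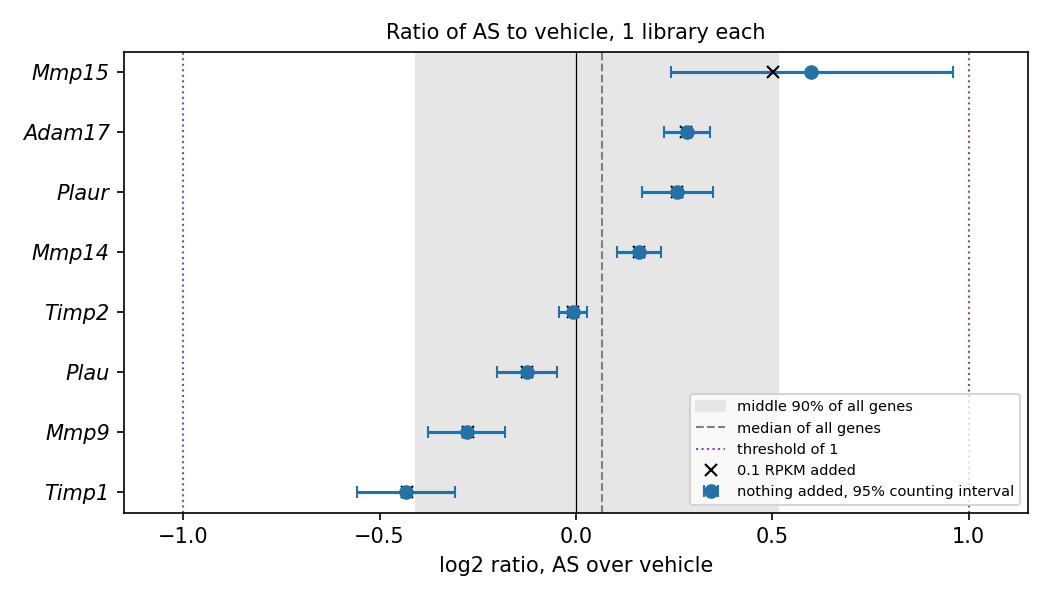
Log2 ratio of AS over vehicle for each of the 8 genes, as points with 95% counting intervals (nothing added) and crosses (0.1 RPKM added), against the middle 90% of all genes (grey), their median (dashed) and the threshold of 1 (dotted). Mmp15 is highest at 0.60 with nothing added, Timp1 lowest at -0.43, and no point reaches a dotted line. The band and the median have 0.1 RPKM added, so the crosses and not the points are on their scale.

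Among the MMPs, the secreted Mmp9 was lower with AS and both membrane MMPs were higher. Mmp9, on chromosome 2 from 164940780 to 164955850, had 9.15 RPKM with AS and 11.1 in the vehicle library, based on 1454 and 1995 reads. Its log2 ratio was -0.28, at percentile 10.03 of all genes, with a counting interval from -0.38 to -0.18. Mmp14, which lies on chromosome 14 from 54431612 to 54445364 and was the most abundant MMP of the table, had 18.8 RPKM with AS and 16.8 in the vehicle library, based on 5029 and 5089 reads. Its log2 ratio was 0.16, with an interval from 0.10 to 0.22. Mmp15, on chromosome 8 from 95352268 to 95375080, had 0.635 RPKM with AS and 0.419 in the vehicle library. Its log2 ratio of 0.50 was the highest of the 8 genes and stood at percentile 94.7 of all genes, but it rests on only 154 and 115 reads. With nothing added the log2 ratio was 0.60, just above log2(1.5), and the interval ran from 0.24 to 0.96. With 1 RPKM added it was 0.20, below Adam17 (0.26) and Plaur (0.24), so its place as the highest depends on the amount added. At this depth a difference in Mmp15 can therefore be placed only loosely, even before the unknown spread between dishes.

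Adam17, on chromosome 12 from 21323509 to 21373632 on the minus strand, was higher with AS. It had 14.8 RPKM against 12.2, based on 4752 and 4421 reads, a log2 ratio of 0.28 with an interval from 0.22 to 0.34. Its 3′ end shares 311 exon bases with Iah1 on the opposite strand, and the strand setting of the counting is not given in the sources used here. Iah1 was low, with 0.931 RPKM with AS and 0.80 in the vehicle library on 110 and 107 reads in all.

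Plau and its receptor gene went in opposite directions by small amounts. Plau, on chromosome 14 from 20836660 to 20843385, had 23.5 RPKM with AS and 25.6 in the vehicle library, based on 2494 and 3075 reads. The log2 ratio of Plau was -0.12, with an interval from -0.20 to -0.05. Plaur, on chromosome 7 from 24462484 to 24475968, had 17.0 RPKM with AS and 14.2 in the vehicle library, based on 1994 and 1886 reads, which gave a log2 ratio of 0.26 and an interval from 0.17 to 0.35. The RPKM of Plau was 1.38 times that of Plaur with AS and 1.80 times with the vehicle, a log2 change of -0.38 with a counting interval from -0.50 to -0.26.

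The inhibitors differed from each other. Timp1, which lies on chromosome X from 20870166 to 20874735, had 21.9 RPKM with AS and 29.5 in the vehicle library, based on 872 and 1331 reads. This was the lowest log2 ratio of the 8 genes, -0.43, at percentile 4.36 of all genes, with an interval from -0.56 to -0.31. Timp2, on chromosome 11 from 118301069 to 118355740 on the minus strand, had nearly equal values of 61.7 and 62.0 RPKM. The log2 ratio of Timp2 was -0.01, and its interval, from -0.04 to 0.03, includes 0 under the scaling of the authors. With TMM scaling of reads the log2 ratio of Timp2 was -0.07, and with TPM it was 0.05, both outside that interval. The annotated exon length of Timp2, 3896 bases, gave no whole reads, and the nearest length that did, 4236 bases, gave 11734 reads with AS and 13343 in the vehicle library. Cep295nl, a gene annotated within Timp2 on the same strand without shared exon bases, had 1.09 RPKM with AS and 2.04 in the vehicle library.

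The balance of protease to inhibitor RNA was computed within each library. The 3 MMP genes summed to 28.6 RPKM with AS and 28.3 in the vehicle library, while Timp1 and Timp2 summed to 83.5 and 91.5. The ratio of MMP to TIMP was thus 0.342 with AS and 0.31 in the vehicle library, a log2 change of 0.14 with a counting interval from 0.08 to 0.21. With geometric means in place of sums, which weigh the low Mmp15 as much as Mmp14, the log2 change was 0.38. The sum depended on which MMPs entered it, since all 12 MMP genes of the table summed to 58.1 RPKM with AS and 63.7 in the vehicle library, a ratio to the TIMPs of 0.696 in both and a log2 change of -0.00 with an interval from -0.06 to 0.06. With geometric means over the 12 genes the log2 change was 0.16, and both values were added after seeing the data. The pair of Mmp14 and Timp2 moved by 0.17 on the log2 scale, from a ratio of 0.271 to 0.305. The pair of Mmp9 and Timp1, both lower with AS, had ratios of 0.418 with AS and 0.376 in the vehicle library, and the interval of that log2 change, from -0.00 to 0.31, includes 0. These are ratios of RNA, and neither enzyme activity nor protein was measured in these libraries.

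The 8 genes were also sorted by whether their products are anchored in the membrane or secreted. The 4 genes for membrane-held proteins (Mmp14, Mmp15, Adam17 and Plaur) had log2 ratios from 0.16 to 0.50. The 4 genes for secreted proteins (Mmp9, Plau, Timp1 and Timp2) had log2 ratios from -0.43 to -0.01, with Timp2 above 0 as TPM. This split was chosen after the values were seen and has no test. The log2 ratio of all genes also moved with exon length, as the plot against exon length shows. The median was -0.05 among genes of 637 to 1082 bases and 0.18 among those of 11947 bases or more. Timp1, with 888 bases, was the shortest of the 8 genes, and Adam17, with 7154 bases, the longest. After the median of genes of like length was subtracted, Timp1 stood at -0.38, Mmp9 at -0.33, Plau at -0.15 and Timp2 at -0.07, and Mmp14 stood at 0.06, Adam17 at 0.17, Plaur at 0.23 and Mmp15 at 0.41.

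**Figure D3:**
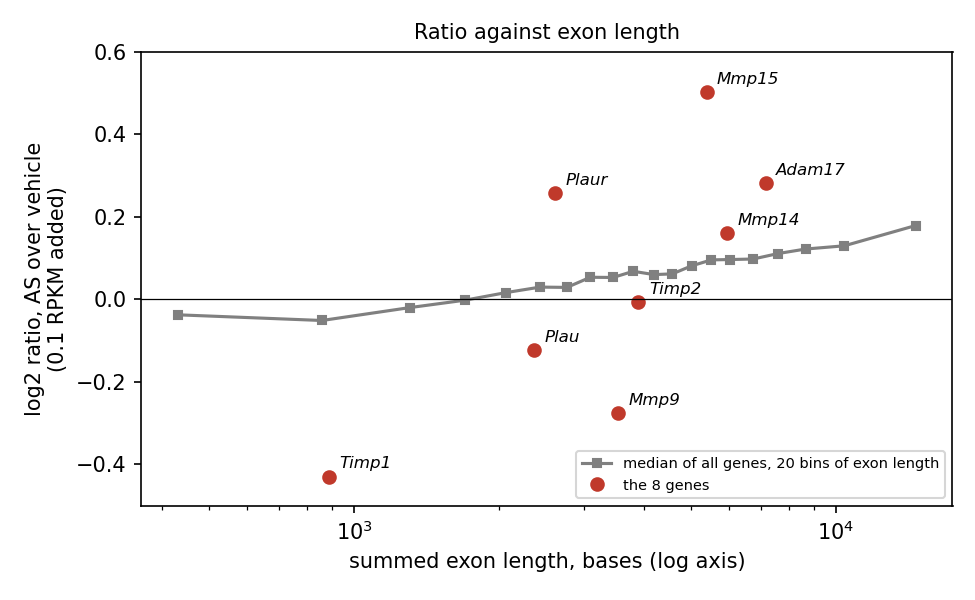
Log2 ratio of AS over vehicle (0.1 RPKM added) against summed exon length on a log axis, for the 8 genes (red, named) and for the median of all genes in 20 bins of length (grey). The grey line climbs from -0.04 in the shortest bin to 0.18 in the longest, and the 4 red points above 0 lie above it while Timp2, Plau, Mmp9 and Timp1 lie below it.

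The wider MMP family was mostly lower in the AS library. Of 23 MMP genes fixed as a list, 12 were listed in the table, 9 were below 0 and 3 above under each scaling tried, with a median log2 ratio of -0.22 against 0.07 for all genes. Of all genes, 60.9% were above 0. Among the lower MMP genes, Mmp13, Mmp12, Mmp3 and Mmp10 lie near each other on chromosome 9, from 7272514 to 7510240. Mmp10, a stromelysin, had 1.18 RPKM with AS and 1.79 in the vehicle library and a log2 ratio of -0.57. Mmp3, another stromelysin, had 8.43 and 11.01 RPKM, a log2 ratio of -0.38. Mmp13, a collagenase, had 7.82 and 9.09 RPKM, a log2 ratio of -0.21, and Mmp2, the other gelatinase, 0.661 and 0.811 RPKM, a log2 ratio of -0.26. All 4 log2 ratios were below 0 and within both thresholds, but with nothing added that of Mmp10, on 91 and 157 reads, was -0.61, beyond log2(1.5), and the counting interval of Mmp2, from -0.68 to 0.08, includes 0. Those of Mmp12, from -0.73 to 0.13, and Mmp19, from -0.44 to 0.21, also include 0. The exception among the MMP genes that are no members was Mmp28, a secreted MMP also called epilysin. Mmp28 had 0.92 RPKM with AS and 0.401 in the vehicle library, on 160 and 79 reads. Its log2 ratio was 1.02, the only one beyond 1 among the 66 genes of all 8 lists that were in the table, and with nothing added its counting interval ran from 0.80 to 1.60. It was no longer beyond 1 with 1 RPKM added or when log2 ratios were centred on the median of all genes. Of all genes, 0.972% lay beyond 1 and 5.57% beyond log2(1.5), the shares to set beside the counts in this and the other lists. Mmp24, a membrane MMP chosen after its values were seen, had a log2 ratio of -0.32, while the secreted Mmp28 was higher with AS. The split by membrane and secretion therefore did not extend to Mmp24 or Mmp28. Of the 9 MMP genes that are no members, 8 were below 0, Mmp24 among them, and only Mmp28 was above. Apart from Mmp24 and Mmp28, these and the other listed genes were not sorted in this way. Whether the split holds beyond the members was therefore not tested.

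**Figure D4:**
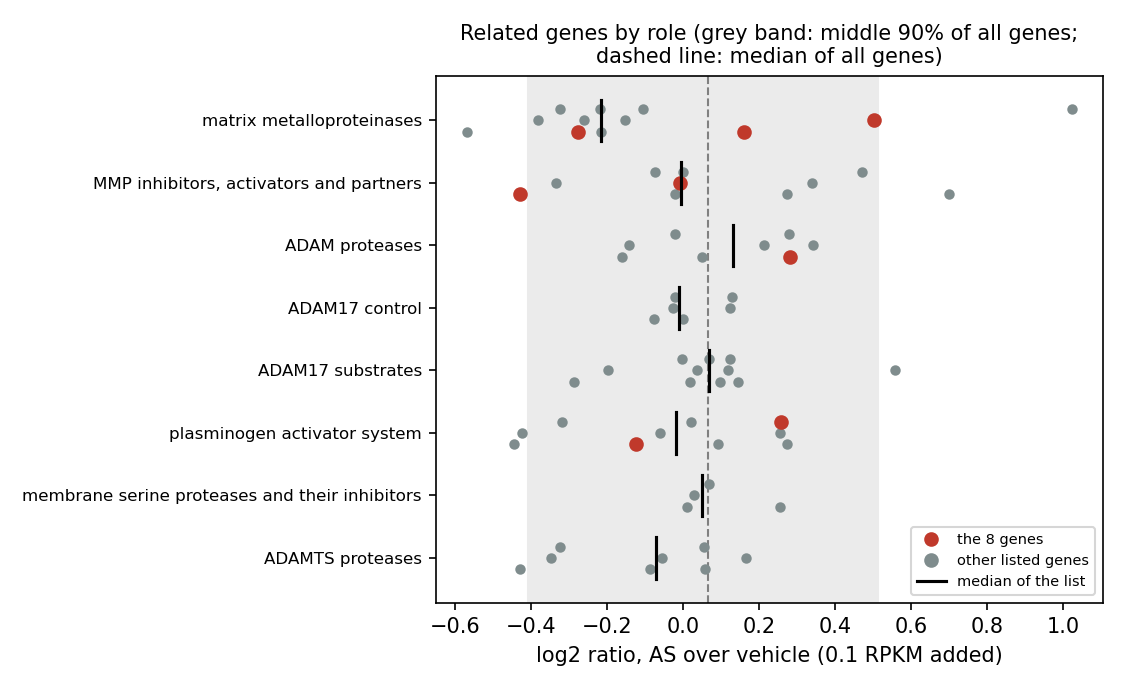
Log2 ratio of AS over vehicle (0.1 RPKM added) for the listed genes in 8 lists by role, with the 8 genes in red, other genes in grey, the median of each list as a bar, and the middle 90% and median of all genes as band and dashed line. The MMP list has the lowest median, -0.22, and Mmp28, at 1.02, is the point farthest to the right.

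Among partners and inhibitors of the MMPs, 10 of 14 genes were listed, with a median log2 ratio of -0.00, and 0 were beyond 1. Lcn2, whose product lipocalin-2 binds the Mmp9 product, had 14.2 RPKM with AS and 8.72 in the vehicle library, and its log2 ratio of 0.70 was beyond log2(1.5). Bsg, which encodes the MMP inducer basigin, was the most abundant gene of the list, with 352 RPKM with AS and 443 in the vehicle library, a log2 ratio of -0.33. Reck, a membrane-anchored MMP inhibitor, had 0.433 and 0.321 RPKM on 93 and 78 reads, and its interval, from -0.02 to 0.89, includes 0. Furin, which activates both Mmp14 and Adam17 products, was at 4.47 and 4.54 RPKM, a log2 ratio of -0.02. The interval of Furin, from -0.11 to 0.07, includes 0. Timp4 was not listed.

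The ADAM genes went both ways. Of 11 listed by role, 8 were in the table, at a median log2 ratio of 0.13, with log2 ratios from -0.16 to 0.34 and 0 beyond log2(1.5). Adam9, the most abundant, had 43.5 RPKM with AS and 35.8 in the vehicle library, a log2 ratio of 0.28, the same to 2 decimals as that of Adam17. Adam10, the gene of a related sheddase, had 22.5 and 19.4 RPKM, a log2 ratio of 0.21. The genes of iRhoms, which carry the Adam17 product to the cell surface, were nearly level, with log2 ratios of -0.08 for Rhbdf1 (11.8 and 12.4 RPKM) and -0.03 for Rhbdf2 (2.63 and 2.68 RPKM). The interval of Rhbdf2, from -0.18 to 0.13, includes 0. Of the 7 genes of ADAM17 control, 6 were in the table and 0 were beyond log2(1.5).

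Of 15 genes whose products Adam17 protein can cut, 11 were in the table, at a median log2 ratio of 0.07, and 0 were beyond log2(1.5). Areg, the gene of the EGFR ligand amphiregulin, had 13.9 RPKM with AS and 9.43 in the vehicle library, a log2 ratio of 0.56 with an interval from 0.41 to 0.72. The ligand genes Tgfa and Hbegf were lower with AS, with 6.93 against 8.48 RPKM (log2 ratio -0.29) and 5.83 against 6.70 RPKM (-0.20). The EGFR ligand genes therefore did not share a direction. The syndecan genes Sdc4 and Sdc1, the most abundant of the list, had log2 ratios of 0.02 and 0.14. The interval of Sdc4, from -0.01 to 0.05, includes 0. Tnf was not listed.

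In the plasminogen activator system, 10 of 15 genes were in the table, with a median of -0.02 and 0 beyond log2(1.5). Anxa2 and S100a10, whose products form a plasminogen-binding pair on the cell surface, had 110 against 147 RPKM and 122 against 152 RPKM, with log2 ratios of -0.42 and -0.32. Plat, the gene of tissue plasminogen activator, had 3.29 and 3.07 RPKM, a log2 ratio of 0.09. The interval of Plat, from -0.04 to 0.23, includes 0. Serpine2 (-0.06) and Serpinb2 (0.02), which encode protease inhibitors, also had log2 ratios whose intervals include 0.

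Of 9 genes of membrane serine proteases and their inhibitors, 4 were in the table, with log2 ratios from 0.01 to 0.26. St14, the gene of matriptase, had 32.1 RPKM with AS and 30.6 in the vehicle library, and Spint1, the gene of its inhibitor, 17.3 and 14.5 RPKM. Of 19 ADAMTS genes, 8 were in the table, at a median log2 ratio of -0.07. Adamts1 had 3.07 RPKM with AS and 4.18 in the vehicle library, a log2 ratio of -0.43, and Adamts14 had 7.16 and 6.88 RPKM, a log2 ratio of 0.06. The interval of Adamts14, from -0.04 to 0.16, includes 0. None of these 12 genes was beyond log2(1.5).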

How the data were processed

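RNA-seq was performed on 1 library of AS-treated and 1 of vehicle-treated 4T1 cells, from a stranded mRNA kit. The authors deposited RPKM per gene and library. The submitters' processing notes name fastp 0.23.4, STAR 2.5.3a, featureCounts and the build GRCh38, which is human, while the exon lengths behind the deposited RPKM were those of mouse GENCODE M21 (GRCm38), so positions are from M21. The filter on low genes is not given in the sources used here. The deposited table also holds 4 columns of the authors' comparison (fold change, mean log2 CPM, p-value, FDR), none of which was used.

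Reads were recovered as RPKM times exon length times library size, accepted within 0.001 of a whole number. The step was tested on data simulated with the exon lengths of accepted genes, so that test cannot show an error in a length. Log2 ratios had 0.1 RPKM added, and beyond 1 or log2(1.5) was counted. With 1 library per condition no test was made. Intervals are Clopper-Pearson for ratios of reads, exact Poisson for levels and the delta method for balances. Members, lists and thresholds were chosen with earlier results of these data known. Named genes are the members, up to 4 higher and 4 lower genes beyond log2(1.5) and the 2 most abundant per list, and partners set by name; 1 result under this rule is not reported here. Alternatives were 0 or 1 RPKM added, TMM, median-of-ratios or upper-quartile scaling of reads with 0.5 reads added, centring on the median of all genes, a mean of at least 50 reads, geometric means and TPM. Python 3.11 with scipy 1.17.1 was used.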

Additional observations from a re-analysis of the deposited data

How the results depend on the processing

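No paired analysis was possible because each condition had 1 library. The count of 0 members beyond 1 was the same under every alternative for added RPKM, scaling and low reads, and at log2(1.5). With 0 RPKM added and log2(1.5) together, chosen after seeing the data, it was 1 (Mmp15). For the 58 listed genes of the table that are no members, the count of 1 (Mmp28) became 0 with 1 RPKM added or with centring, and 2 at log2(1.5). Of all genes, 0.972% lay beyond 1 and 5.57% beyond log2(1.5). The log2 change of the MMP to TIMP balance was 0.14, 0.38 with geometric means and -0.00 over all 12 MMP genes of the table (-8.91e-05), the last chosen after seeing the data. Against the scaling of the authors, TMM scaling by itself shifted log2 ratios by -0.07. It was applied with 0.5 reads added in place of 0.1 RPKM, and Mmp15 rose from 0.50 to 0.53. Of 64 alternative values for single members, 1 had another sign, that of Timp2 less the median of genes of like mean RPKM (0.01), chosen after seeing the data. As TPM, Timp2 was also above 0 (0.05). Of the 64 values, 16 moved from the main value by more than the distance from the middle to the end of the gene's counting interval. All of these were for Mmp14, Adam17 or Timp2. Mmp15 was not counted as moved because its interval is wide, although it fell from 0.50 to 0.20 with 1 RPKM added. With TMM scaling, Mmp14 was at 0.09, Adam17 at 0.21 and Timp2 at -0.07. Depth limits Mmp15 most, and the spread between dishes is unknown for every gene.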
